A study of Mus musculus with 6 samples.

Results

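The 6 genes of the platelet-derived growth factor (PDGF) ligands and receptors, Pdgfa, Pdgfb, Pdgfc, Pdgfd, Pdgfra and Pdgfrb, were followed in RNA from sorted mouse kidney endothelial cells (ECs). They were taken by gene name from the 55401 genes of the count table, all 6 were found, and all 6 passed the filter on low counts that left 18438 genes for testing. The study asked how loss of Notch signalling in adult endothelium alters kidney ECs, and compared 3 RbpjΔEC libraries (labelled RbpjDEC) with 3 libraries of Cre-negative littermates (CTRL). All animals were male, from a line that joins the transgene spelled in the labels as B6-Tg(Cdh5(PAC-cre/ERT21Rha with the floxed allele Rbpsuh tm3Hon/Rbrc of Rbpj, whose product carries canonical Notch signals to DNA. CTRL had the genotype Cre -/-; Rbpjf/f and RbpjΔEC the genotype Cre +/-; Rbpjf/f, so that only RbpjΔEC carried the tamoxifen-inducible Cre recombinase, which is driven by the endothelial Cdh5 promoter. Both groups received 5 intraperitoneal doses of 1.5 mg tamoxifen at 8 weeks of age, kidneys were taken 12 weeks after induction, and the age given in the labels is 21 weeks. ECs were sorted as CD31+ CD45- cells. The paper describes 3 biological replicates per group, while the labels do not say whether each library is 1 mouse. The p-values measure the spread between these libraries.

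PDGFs are secreted dimers that act through the receptor tyrosine kinases encoded by Pdgfra and Pdgfrb. In blood vessels, PDGF-B released by ECs and held near the vessel wall by heparan sulfate recruits pericytes, smooth muscle cells and, in the glomerulus, mesangial cells, which carry PDGFR-β. PDGFR-α is the receptor of fibroblasts and other mesenchymal cells, and it responds to PDGF-A and PDGF-C among others. PDGF-C and PDGF-D are secreted with an inhibitory CUB domain that proteases remove. Both receptors are thus known mainly from cells other than ECs, which a CD31 sort is meant to leave out.

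Total counts per library ran from 39649171 to 47726850, so that a floor of 3 counts was worth 0.0629 to 0.0757 CPM (counts scaled to library size with edgeR's TMM factors). The endothelial label held in all 6 libraries: Kdr, a VEGF receptor gene, and Cdh5, the gene of VE-cadherin, had means of 5994 and 1823 CPM in CTRL and 4959.5 and 1594 CPM in RbpjΔEC, with log2 fold changes of -0.27 (edgeR adjusted p = 0.106) and -0.19 (0.286). Counts fell on 33764 genes in CTRL 1 and on 25629 to 26785 genes in the other 5 libraries. The Rbpj counts cover the whole gene and do not show the deleted part, so the groups rest on the labels.

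The promoters of the receptor that passed the test and of the endothelial ligand whose groups did not overlap are shown first, since Rbpj binds DNA at the core motif TGGGAA. Each run gives the 250 bases before the RefSeq start on GRCm38.p6, 5′ to 3′ on the strand of the gene, which is the plus strand for both. Pdgfra is shown from chr5:75152001-75152250 and Pdgfd from chr9:6168236-6168485, with motif matches in capitals.
Pdgfra: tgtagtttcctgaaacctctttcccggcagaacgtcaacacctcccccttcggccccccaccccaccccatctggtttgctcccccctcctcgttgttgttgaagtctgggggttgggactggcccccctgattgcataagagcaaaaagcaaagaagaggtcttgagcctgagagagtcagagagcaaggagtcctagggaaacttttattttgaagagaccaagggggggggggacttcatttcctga
Pdgfd: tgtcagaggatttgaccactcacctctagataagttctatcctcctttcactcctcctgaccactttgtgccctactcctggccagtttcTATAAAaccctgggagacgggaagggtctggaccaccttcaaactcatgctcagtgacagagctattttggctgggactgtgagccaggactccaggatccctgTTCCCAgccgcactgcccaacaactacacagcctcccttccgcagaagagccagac
Searched on both strands were TGGGAA, the CACGTG palindrome bound by Hey and other basic helix-loop-helix factors, GGGCGG, and TATAAA. The Pdgfra window held none of the 4 motifs. The Pdgfd window held TGGGAA on the minus strand, printed as TTCCCA and starting 56 bases before the start, and TATAAA 160 bases before it. Among 32851 RefSeq promoters of this length, 21.6% held TGGGAA, 6.02% CACGTG, 32.7% GGGCGG and 12.4% TATAAA. GC content was 54.4% for Pdgfra and 53.6% for Pdgfd, against a median of 52.4%. RefSeq promoter entries were found for Pdgfa, Pdgfc, Pdgfd and Pdgfra, 4 of the 6 genes. TGGGAA also lay 13 bases before the start in 1 of the 2 Pdgfa windows, and the Pdgfc window held none of the 4 motifs.

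Per kilobase of exon, the only scale on which different genes are compared here, the sorted cells held far more ligand than receptor RNA. Pdgfb led with a mean of 74.0 CPM per kb in CTRL and 69.0 in RbpjΔEC. Pdgfd followed with 38.7 and 31.6 CPM per kb, and Pdgfa with 5.98 and 5.62. Pdgfrb came next with 1.95 CPM per kb in CTRL and 0.754 in RbpjΔEC. Pdgfra (0.345 and 0.109 CPM per kb) and Pdgfc (0.301 and 0.170) were last, and their ranges overlapped in both groups. Every other pair of neighbours in this order was separated in all libraries of both groups.

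**Figure D1:**
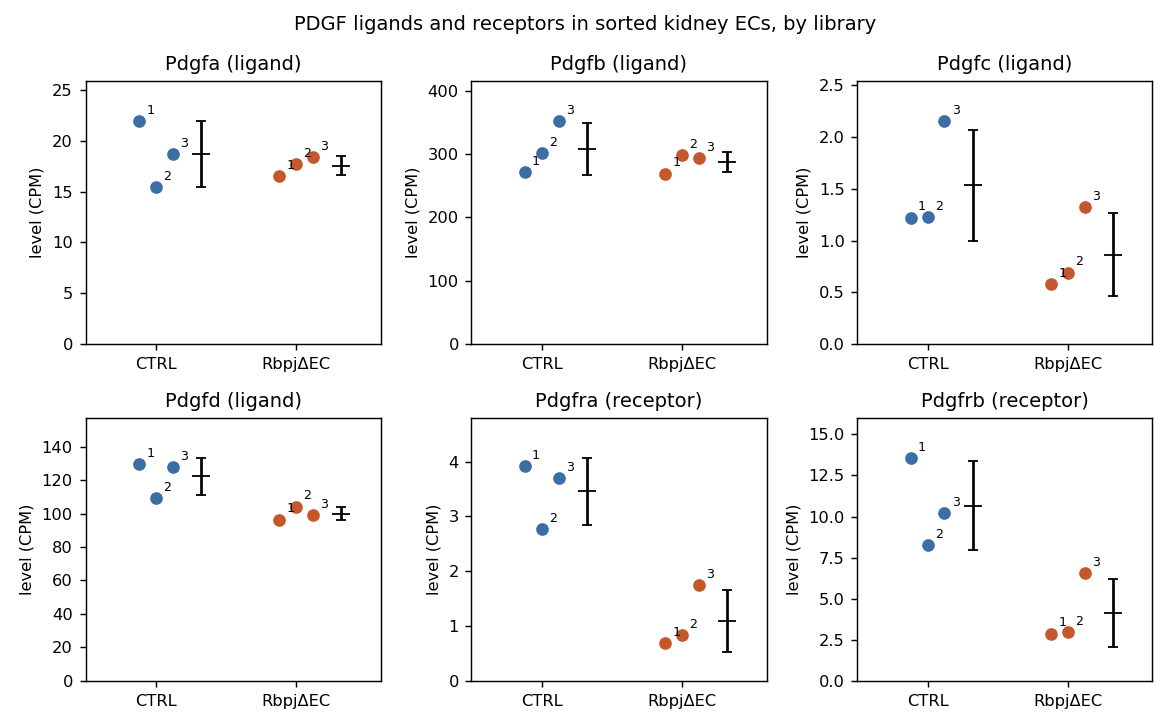
Level of each PDGF gene in CPM (vertical axis, starting at 0, own scale per panel) in the 3 CTRL and 3 RbpjΔEC libraries, numbered by replicate, with mean and SD as the black bars beside the points. The points of Pdgfd, Pdgfra and Pdgfrb do not overlap between the groups, while those of Pdgfa, Pdgfb and Pdgfc do.

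The ligand genes Pdgfb and Pdgfa did not pass the test, and their intervals were narrow and included 0. Pdgfb (ENSMUSG00000000489.7, minus strand of chromosome 15 from 79995874 to 80014977 on GRCm38) had 270.8, 301.3 and 351.7 CPM in CTRL libraries 1 to 3 and 269.0, 297.8 and 293.9 CPM in RbpjΔEC 1 to 3. The RbpjΔEC libraries lay within the lower part of the CTRL range, apart from RbpjΔEC 1, which was just below CTRL 1. Means were 307.9 ± 40.9 and 286.9 ± 15.7 CPM (SD, n = 3 each). The log2 fold change of RbpjΔEC against CTRL was -0.10 (95% interval -0.31 to 0.10), with an adjusted p of 0.610 (quasi-likelihood test of edgeR, Benjamini-Hochberg over all tested genes, as for every adjusted p below unless another test is named). Without CTRL 3, the highest library, the log2 fold change was 0.0023.

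Pdgfa (ENSMUSG00000025856.15, minus strand of chromosome 5 from 138976014 to 138997370) had 21.9, 15.4 and 18.7 CPM in CTRL libraries 1 to 3 and 16.5, 17.7 and 18.4 CPM in RbpjΔEC 1 to 3. All RbpjΔEC libraries fell inside the CTRL range. With means of 18.7 ± 3.25 and 17.5 ± 0.942 CPM (SD, n = 3 each), the log2 fold change was -0.09 (95% interval -0.37 to 0.19, edgeR adjusted p = 0.752). Without CTRL 1 its sign turned, to 0.036. An antisense gene, 6330403L08Rik, shares exon positions with Pdgfa and had 480 to 624 counts in CTRL and 520 to 711 in RbpjΔEC, against 729 to 878 and 736 to 742 counts on Pdgfa. The library kit marks strand, but the strand setting of the counting is not given in the sources used here, so reads of these genes may not be fully told apart.

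Pdgfd and Pdgfc, the CUB-domain ligands, had lower point estimates, and neither passed the test. Pdgfd (ENSMUSG00000032006.15, plus strand of chromosome 9 from 6168584 to 6378850) had 129.5, 109.4 and 127.6 CPM in CTRL libraries 1 to 3 and 96.3, 104.1 and 99.0 CPM in RbpjΔEC 1 to 3. Every RbpjΔEC library was below every CTRL library, with CTRL 2 the closest to them. The means of 122.2 ± 11.1 and 99.8 ± 3.96 CPM (SD, n = 3 each) gave a log2 fold change of -0.29 (95% interval -0.46 to -0.12, edgeR adjusted p = 0.0941). The call depends on the test and on 1 library: the adjusted p was 0.0363 with DESeq2's Wald test, and 0.0224 with edgeR's test without CTRL 2.

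The lower Pdgfd values ran beside a lower sum of EC genes. The 11 endothelial markers summed to 17908 to 19937 CPM in CTRL and 16307 to 16862 CPM in RbpjΔEC, without overlap, although 0 of the 11 passed the adjusted test (before adjustment, 3 were lower and 1 higher at p under 0.05, edgeR). Against that sum, the log2 ratio of Pdgfd was -7.29 ± 0.064 in CTRL and -7.38 ± 0.052 in RbpjΔEC (SD, n = 3 each), a difference of -0.09 with overlapping groups (two-sided exact permutation test, p = 0.2, adjusted p = 0.28 over 7 ratios). Against the mean log2 CPM of the markers in place of their sum, the difference was -0.18 (exact permutation test, p = 0.1). Across the 6 libraries, Pearson's r of log2 CPM between Pdgfd and the EC sum was 0.971, a description in which both share library and normalization. The part of the EC sum in the level of Pdgfd was not tested.

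Pdgfc (ENSMUSG00000028019.9, plus strand of chromosome 3 from 81036416 to 81214040) had the lowest mean level per kilobase in CTRL, with 49, 58 and 91 counts in CTRL libraries 1 to 3 and 26, 29 and 53 counts in RbpjΔEC 1 to 3. In CPM these were 1.22, 1.23 and 2.15 against 0.580, 0.691 and 1.32. RbpjΔEC 3 reached into the CTRL range, and RbpjΔEC 1 and 2 were below it. The log2 fold change of -0.83 had a 95% interval from -1.70 to 0.04 (edgeR adjusted p = 0.306), which includes 0. Without RbpjΔEC 3 the log2 fold change was -1.27, still not past the threshold (edgeR adjusted p = 0.129).

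No ligand changed its share of the ligand RNA past a test, in a design that cannot reach 0.05 for such shares. Per kilobase, Pdgfb made up 57.4%, 64.5% and 64.3% of the summed ligand level in CTRL libraries 1 to 3 and 64.3%, 64.8% and 65.3% in RbpjΔEC 1 to 3. CTRL 1 stood below the other 5 libraries, which lay within about 1 percentage point. The share of Pdgfd was 36.2%, 30.9% and 30.8% in CTRL and 30.4%, 29.9% and 29.0% in RbpjΔEC, lower in every RbpjΔEC library, with a mean difference of -2.87 percentage points (two-sided exact permutation test, p = 0.1, the smallest that 3 libraries against 3 allow, and 0.4 adjusted over 4 shares). Without CTRL 1 that difference was -1.08 points. Pdgfa held 5.05% ± 0.992 and 5.28% ± 0.154, and Pdgfc 0.249% ± 0.063 and 0.159% ± 0.071 (SD, n = 3 each). The log2 ratio of Pdgfb to Pdgfd was 1.33 ± 0.230 in CTRL and 1.52 ± 0.045 in RbpjΔEC (SD, n = 3 each), without overlap (exact permutation test, two-sided, p = 0.1, adjusted p = 0.233 over 7 ratios), and the difference of 0.19 became 0.0603 without CTRL 1, again the library farthest from the rest.

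**Figure D2:**
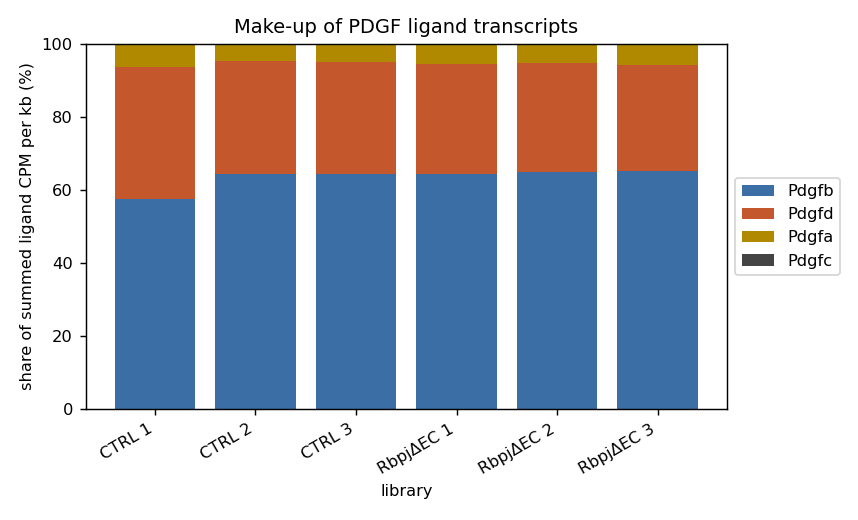
Share of each ligand gene in the summed ligand level per kilobase of exon (percent, stacked to 100) in each of the 6 libraries. Pdgfb makes up 57.4% in CTRL 1 and 64.3% to 65.3% in the other libraries, and Pdgfc is too small to be seen.

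Pdgfra was the member that fell past the threshold. Pdgfra (ENSMUSG00000029231.15, plus strand of chromosome 5 from 75152292 to 75198215) had 157, 131 and 156 counts in CTRL libraries 1 to 3 and 31, 35 and 70 counts in RbpjΔEC 1 to 3. In CPM these were 3.92, 2.77 and 3.69 against 0.691, 0.834 and 1.75. Every RbpjΔEC library was below every CTRL library, and RbpjΔEC 3 was the closest to them. The means were 3.46 ± 0.609 and 1.09 ± 0.573 CPM (SD, n = 3 each), which is 3.18-fold lower in RbpjΔEC (95% interval 1.88 to 5.37). The log2 fold change was -1.67 ± 0.347 (SE), with an edgeR adjusted p of 0.0468. This call rests on single libraries: the adjusted p was 0.147 without CTRL 1, 0.173 without CTRL 3, 0.186 without RbpjΔEC 1, 0.135 without RbpjΔEC 2 and 0.0047 without RbpjΔEC 3. With all 6 libraries kept, Pdgfra passed under every other test, scaling and filter tried. The adjusted p then ran from 7.88e-06 (edgeR without a low-count filter) to 0.0479 (limma voom).

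Pdgfrb was lower by a similar factor and missed the threshold. Pdgfrb (ENSMUSG00000024620.11, plus strand of chromosome 18 from 61045150 to 61085061) had 544, 390 and 431 counts in CTRL libraries 1 to 3 and 129, 125 and 262 counts in RbpjΔEC 1 to 3. In CPM these were 13.6, 8.24 and 10.2 against 2.88, 2.98 and 6.54. The groups did not overlap, and RbpjΔEC 3 again stood above the other RbpjΔEC libraries. Means of 10.7 ± 2.70 and 4.13 ± 2.08 CPM (SD, n = 3 each) gave a 2.59-fold lower level (95% interval 1.47 to 4.54) and a log2 fold change of -1.37 ± 0.348 (SE), with an edgeR adjusted p of 0.110. By DESeq2's Wald test the adjusted p was 0.000197 at the same fold change, and edgeR's test without RbpjΔEC 3 gave -1.86 with an adjusted p of 0.0017. With any other library left out, edgeR's adjusted p stayed above the threshold, from 0.0874 to 0.290, and limma voom gave 0.0523.

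Both receptors moved together from library to library. Their log2 CPM correlated with r = 0.988 over the 6 libraries, a description that includes the difference between the groups. The log2 ratio of Pdgfrb to Pdgfra was 1.79, 1.57 and 1.47 in CTRL libraries 1 to 3 and 2.06, 1.84 and 1.90 in RbpjΔEC 1 to 3. It was higher in every RbpjΔEC library, by 0.32 on average (exact permutation test, two-sided, p = 0.1, adjusted p = 0.233 over 7 ratios).

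Of the 6 members, 1 was called lower at an adjusted p under 0.05, against 0.559% of all tested genes called lower and 1.13% called in either direction. All 6 fold changes were below 0, as were 48.9% of all genes, and the median was -0.56 for the members and 0.0072 for all genes on the log2 scale. At an unadjusted p under 0.05, 3 members were lower and 0 higher (8.62% and 8.88% of all genes). Also 3 had groups that did not overlap, each lower in RbpjΔEC (11.6% of all genes, and 23.0% in either direction). With so few genes these counts describe the members and are not a test.

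**Figure D3:**
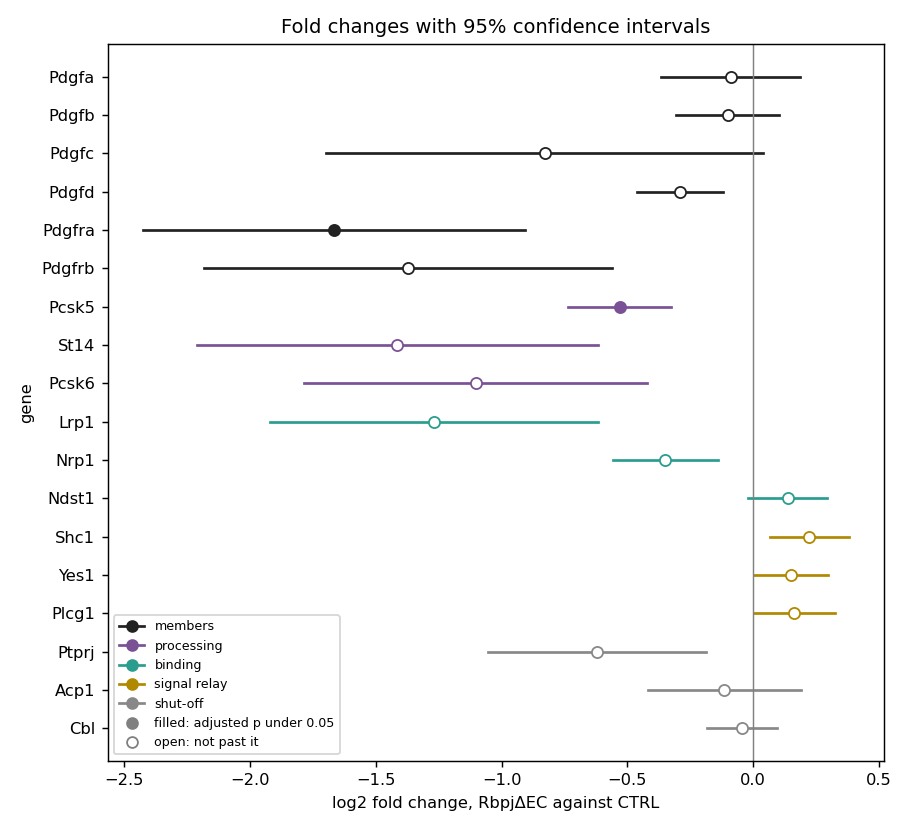
Log2 fold change of RbpjΔEC against CTRL (horizontal axis, points) with 95% confidence intervals (lines) for the 6 PDGF genes and 3 genes of each pathway role. Filled points, for Pdgfra and Pcsk5, mark an adjusted p under 0.05.

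Beside the receptors, markers of the cells that usually carry them had lower values in RbpjΔEC too. Bulk RNA cannot tell fewer cells of a type from less RNA per cell. Of the mural list (pericyte and smooth muscle genes), 12 of 15 were tested, 10 had fold changes below 0 (48.9% of all genes) and 3 were called lower (0.559% of all genes), and the median was -1.03 on the log2 scale. The smooth muscle actin gene Acta2 fell by 1.30 on the log2 scale (adjusted p = 0.0369), the smooth muscle myosin gene Myh11 by 1.08 (0.0468) and the pericyte gene Rgs5 by 0.88 (0.0468), all from edgeR's test. Kcnj8 and Abcc9, which encode the subunits of a pericyte potassium channel, went the other way with log2 fold changes of 0.93 and 1.03 (adjusted p = 0.162 and 0.307 in edgeR's test). They were singled out after their values were seen, as were the other marker genes named after the first 3 of each list.

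The summed mural list ran from 103.5 to 135.3 CPM in CTRL and from 82.2 to 105.3 CPM in RbpjΔEC. Without Kcnj8 and Abcc9 the sums were 82.0 to 106.4 against 34.5 to 55.6 CPM and no longer overlapped. The defining genes Cnn1, Higd1b and Vtn were too low to be tested in either group, with at most 16 counts in any library. The log2 ratio of Pdgfrb to the mural sum was -3.46 ± 0.234 in CTRL and -4.57 ± 0.740 in RbpjΔEC (SD, n = 3 each), lower in every RbpjΔEC library by -1.11 on average (exact permutation test, two-sided, p = 0.1, adjusted p = 0.233). Without Kcnj8 and Abcc9 in the sum that difference was -0.39, and against the mean log2 CPM of the full list it was -0.73 (exact permutation test, p = 0.2).

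The mesangial list, for cells that also carry PDGFR-β, had a lower sum in every RbpjΔEC library. All 5 of its genes had fold changes below 0, with a median of -1.25, and its sum went from 143.1 to 167.2 CPM in CTRL to 97.9 to 132.5 CPM in RbpjΔEC. Ptn, which encodes the growth factor pleiotrophin, passed the test (log2 fold change -1.25, edgeR adjusted p = 0.0154). The integrin gene Itga8 (-0.74, adjusted p = 0.101), the transcription factor gene Gata3 (-1.55, 0.142) and the protease inhibitor gene Serpine2 (-0.27, 0.242) did not pass it. Gata3 had 1.09 and 1.10 CPM in RbpjΔEC 1 and 2 and 3.67 CPM in RbpjΔEC 3, which was also the highest RbpjΔEC library for both receptors. Serpine2 alone made up 73.0% of the sum. Over the 6 libraries, the log2 level of Pdgfrb correlated with r = 0.987 with the mesangial sum, the highest of the 8 full marker lists, and with r = 0.669 with the mural sum, or 0.949 for the mural sum without Kcnj8 and Abcc9. Other sums also gave values above that of the full mural sum, with r = 0.878 for tubule, 0.870 for fibroblast, 0.778 for endothelial and 0.750 for podocyte genes. These are descriptions over 6 libraries that include the group difference.

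For Pdgfra the reference was a fibroblast list, and it was thin. Of its 9 genes 4 could be tested, all with fold changes below 0, and 1 gene, Dpt, was at 0 in all libraries. The defining genes Col1a1 and Dcn had at most 9 counts per library. The collagen gene Col1a2 had 2.17, 1.23 and 2.06 CPM in CTRL and 0.468, 0.262 and 0.799 CPM in RbpjΔEC, a log2 fold change of -1.83 with an edgeR adjusted p of 0.0622. Pi16, a peptidase inhibitor gene, fell by 0.88 (edgeR adjusted p = 0.0138) and made up 98.3% of the list's sum. It had 131.3 to 163.0 CPM in CTRL, where Col1a1 and Dcn had at most 0.224 CPM. Which cells its RNA came from was not tested, so the full sum is a weak reference for fibroblasts. The full sum ran from 134.7 to 166.3 CPM in CTRL and from 69.2 to 94.6 CPM in RbpjΔEC, and from 2.30 to 3.47 against 0.858 to 1.40 CPM without Pi16. The log2 ratio of Pdgfra to the full sum was -5.47 ± 0.357 and -6.35 ± 0.579 (SD, n = 3 each), a difference of -0.88 with overlapping groups (exact permutation test, two-sided, p = 0.2, adjusted p = 0.28), which was -0.27 without Pi16. Against the mean log2 CPM of the list it was -0.46 (exact permutation test, p = 0.1).

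Relative to the CTRL mean, Pdgfra stood at -2.31, -2.04 and -0.97 on the log2 scale in RbpjΔEC 1 to 3, the full fibroblast sum at -0.86, -1.13 and -0.68, and that sum without Pi16 at -1.63, -1.79 and -1.08. Pdgfrb stood at -1.86, -1.81 and -0.68, the full mural sum at -0.49, -0.13 and -0.40, that sum without Kcnj8 and Abcc9 at -1.04, -1.41 and -0.72, and the mesangial sum at -0.52, -0.63 and -0.20. The EC sum was at -0.19, -0.18 and -0.23. Both receptors lay below the full sums in all 3 RbpjΔEC libraries. They lay below the trimmed sums, which were chosen after seeing the values, in RbpjΔEC 1 and 2 and near them in RbpjΔEC 3. The part of other cell types in the levels of the receptors was not tested.

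**Figure D4:**
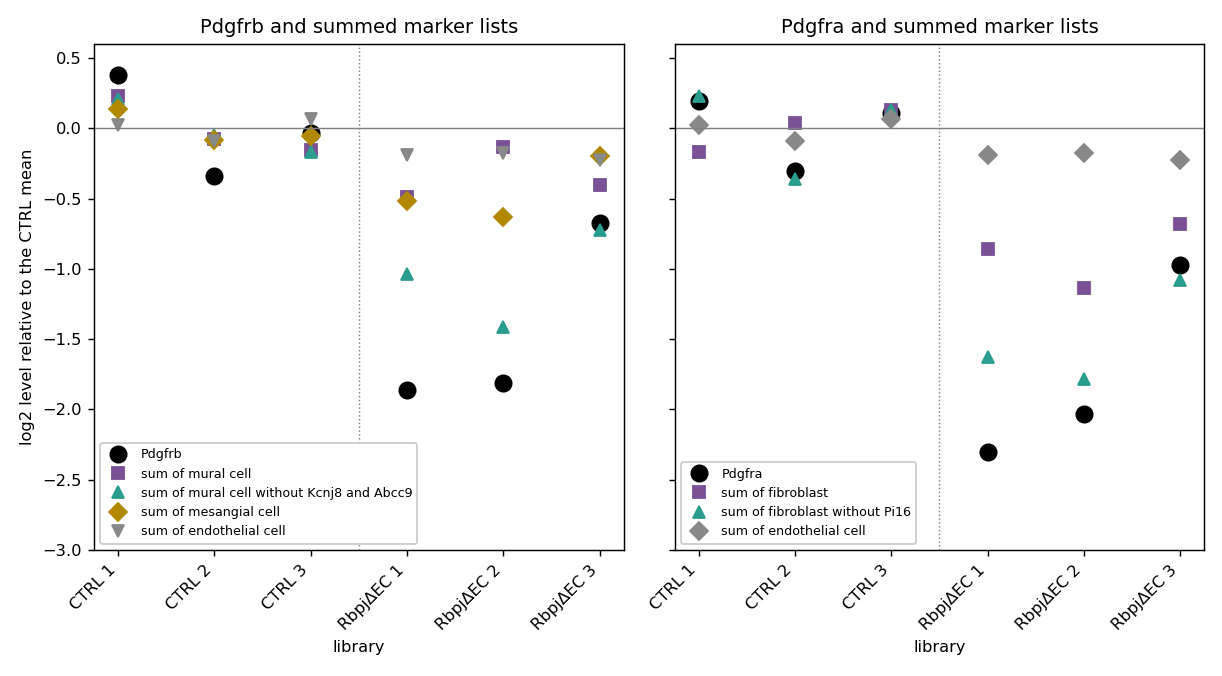
Log2 level relative to the CTRL mean (vertical axis) of Pdgfrb with mural, mesangial and endothelial marker sums (left) and of Pdgfra with fibroblast and endothelial marker sums (right) in the 6 libraries. Both receptors are lowest in RbpjΔEC 1 and 2, at -1.81 or below, while the endothelial sum stays between -0.23 and -0.18 in RbpjΔEC.

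The podocyte and tubule lists also had medians below 0, at -0.66 and -1.19 on the log2 scale. Fold changes were below 0 for 4 of 5 and 4 of 7 of their genes. Podocyte genes summed to 3184 to 3564 CPM in CTRL and 2591 to 2859 CPM in RbpjΔEC, with 0 of 5 genes past the threshold (1 at an unadjusted p under 0.05, edgeR) and 93.7% of the sum from Podxl, which ECs also express. The slit diaphragm gene Nphs1 (log2 fold change -0.82, adjusted p = 0.580) and the actin regulator gene Synpo (0.07, 0.694) did not pass edgeR's test. Nphs1 had 1.67, 1.39 and 2.98 CPM in CTRL libraries 1 to 3 and 0.691, 0.334 and 2.42 CPM in RbpjΔEC 1 to 3. Tubule genes summed to 270.6 to 410.9 CPM in CTRL and to 151.0, 98.7 and 369.7 CPM in RbpjΔEC 1 to 3, with 0 of 7 called (3 at an unadjusted p under 0.05, edgeR). RbpjΔEC 3, the RbpjΔEC library with the highest level of both receptors, thus stood apart in tubule genes, and the part of this in the receptor levels was not tested. Among them the endocytic receptor gene Lrp2 (1.27, adjusted p = 0.523) pointed up, and the thick limb genes Umod (-1.19, 0.279) and Slc12a1 (-1.25, 0.357) down, none past edgeR's threshold.

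The macrophage list summed to 15.2 to 18.3 CPM in CTRL and 24.0 to 29.1 CPM in RbpjΔEC, of which Cd68 gave 78.2%. Of its 5 tested genes, 4 had fold changes below 0, with a median of -1.25 on the log2 scale. Cd68, a lysosomal gene, rose by 1.27 (edgeR adjusted p = 0.0154), whereas the macrophage receptor gene Csf1r had a log2 fold change of -1.57 (adjusted p = 0.134) and Adgre1 at most 17 counts. Platelets, which store PDGF, were represented by 3 of 5 genes that could be tested. The chemokine genes Pf4 (0.18, adjusted p = 0.884) and Ppbp (-0.34, 0.760) and the integrin gene Itga2b (0.08, 0.882) did not pass edgeR's test, and the platelet sums of 4.69 to 8.55 CPM and 5.39 to 6.96 CPM overlapped.

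The genes that handle the ligands before they reach a receptor included the only pathway gene that passed the test. In the processing role, 7 proteases that cleave PDGF precursors or CUB domains were tested, with a median log2 fold change of -0.53. Fold changes were below 0 for 5 (48.9% of all genes), and 1 was called lower (0.559% of all genes). Before adjustment, 5 were lower at p under 0.05 (edgeR, 8.62% of all genes). Groups did not overlap for 5 lower genes (11.6% of all genes). Pcsk5, a proprotein convertase, had 78.6, 88.7 and 98.8 CPM in CTRL libraries 1 to 3 and 62.5, 56.1 and 65.6 CPM in RbpjΔEC 1 to 3. No library of the groups overlapped. Its log2 fold change was -0.53 ± 0.0933 (SE), with an edgeR adjusted p of 0.0239. St14, the gene of matriptase, which can activate PDGF-D, had 4.09 ± 1.48 CPM in CTRL and 1.54 ± 0.746 CPM in RbpjΔEC (SD, n = 3 each, log2 fold change -1.41, adjusted p = 0.0862). The convertase gene Pcsk6 had 3.75 ± 1.15 and 1.74 ± 0.562 CPM (SD, n = 3 each, -1.10, adjusted p = 0.104), and neither of these passed edgeR's test. Plat, named here after its values were seen because tissue plasminogen activator cleaves PDGF-C, had 693.2, 956.4 and 886.2 CPM in CTRL and 424.6, 399.2 and 664.8 CPM in RbpjΔEC. Its log2 fold change of -0.77 did not pass edgeR's test (adjusted p = 0.185), although the groups did not overlap.

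Genes that bind PDGF or hold it near the cell gave 5 tested of 6, of which 4 had fold changes below 0 and 0 passed the adjusted test (2 lower at an unadjusted p under 0.05, edgeR). Lrp1, an endocytic receptor that works with PDGFR-β, had 31.7 ± 6.69 and 13.2 ± 4.46 CPM (SD, n = 3 each, log2 fold change -1.27, edgeR adjusted p = 0.0922). Like the receptors it was higher in RbpjΔEC 3 (18.2 CPM) than in RbpjΔEC 1 and 2 (11.4 and 9.87 CPM). The co-receptor gene Nrp1 had a log2 fold change of -0.35 (adjusted p = 0.0975) and the heparan sulfate enzyme gene Ndst1 one of 0.14 (0.348), neither past edgeR's threshold. Pdgfrl, a receptor-like gene, had at most 4 counts in any library and was not tested.

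None of the genes downstream of the receptors passed the test. Of 17 relay genes (adaptors, kinases and phospholipase), 11 had fold changes below 0, the median was -0.02, and 0 passed the adjusted test (3 higher at an unadjusted p under 0.05, edgeR). Those 3 were the adaptor gene Shc1 (log2 fold change 0.22, adjusted p = 0.138), the kinase gene Yes1 (0.15, 0.272) and the phospholipase gene Plcg1 (0.16, 0.278), each without overlap between the groups. Of 6 shut-off genes, 5 had fold changes below 0 with a median of -0.04 and 0 passed (1 at an unadjusted p under 0.05, edgeR). The phosphatase genes Ptprj (-0.62, adjusted p = 0.146) and Acp1 (-0.11, 0.714) and the ubiquitin ligase gene Cbl (-0.04, 0.763) came first by p. Over the 35 tested pathway genes, 25 had fold changes below 0, the median was -0.04, 1 was called lower and 0 higher, against 0.559% and 0.575% of all genes. The count of 1 became 6 with DESeq2's Wald test and 0 without CTRL 3, RbpjΔEC 1 or RbpjΔEC 2. Calls over all genes moved the same way, from 209 to 944 with DESeq2's Wald test and to 24, 21 and 48 without those libraries.

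For each member, the genes with the most similar pattern over the 6 libraries were taken from the 10438 tested genes with at least 5 CPM on average, by Pearson's r of log2 CPM. Those nearest to Pdgfb were Rgs2 (r = 0.991), Tspan4 (0.982) and Rnh1 (0.976), and those nearest to Pdgfa were Fip1l1 (0.985), Mad2l1 (0.982) and Zfp667 (0.973). Pdgfd was most like Fam174a (0.9996), Atp5b (0.995) and Pde6d (0.995), and Pdgfc most like Fhl1 (0.996), Acadsb (0.991) and Galnt1 (0.988). For Pdgfra these were Tshz1 (0.999), Trappc13 (0.993) and Ube2k (0.993), and for Pdgfrb Ube2k (0.998), Atp6ap2 (0.992) and Marchf6 (0.990). After subtracting the group means, r was 0.971 or higher for each of these 18 pairs. Such values are the highest of many over 6 libraries, and likeness in pattern is not likeness in size: Ube2k, among the 3 nearest to both receptors, had a log2 fold change of only -0.20.

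**Figure D5:**
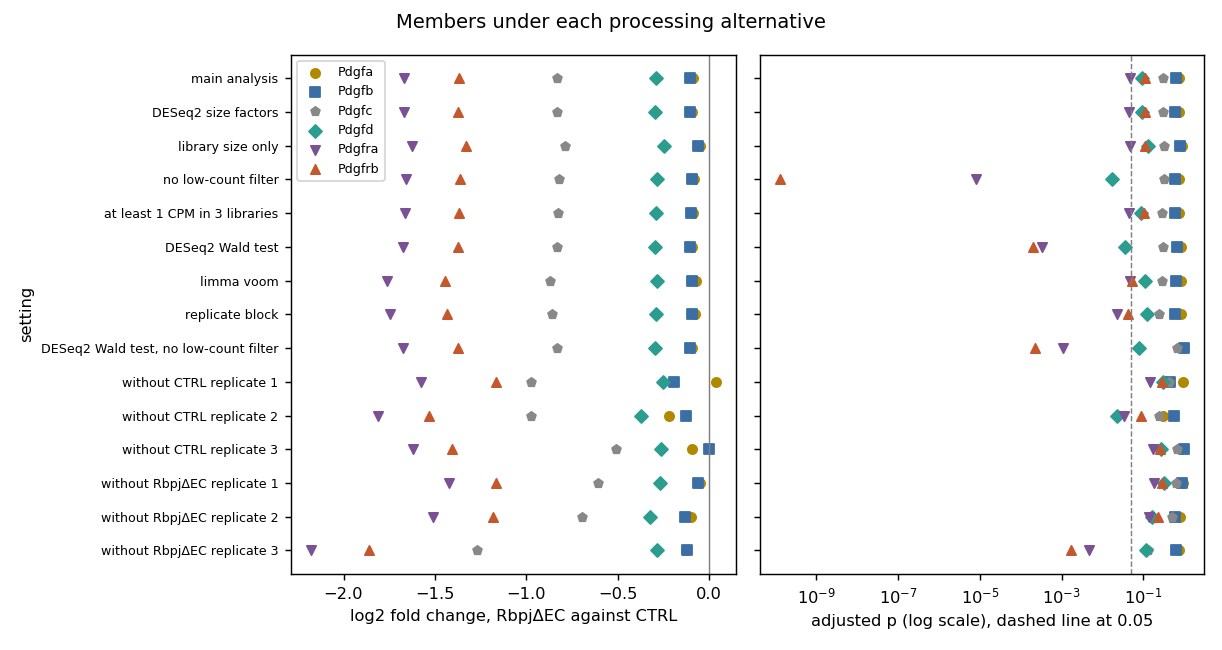
Log2 fold change (left) and adjusted p on a log axis (right, dashed line at 0.05) of the 6 PDGF genes under each processing alternative and with each library left out. Pdgfra and Pdgfrb stay below -1.1 throughout, while their adjusted p crosses the line, and Pdgfa and Pdgfb stay near 0.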

How the data were processed

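RNA of CD31+ CD45- kidney ECs was measured in 6 libraries. The authors trimmed reads with Trim Galore 0.6.4, aligned them with STAR 2.6.1d to mm10 (GRCm38.p6), counted them per gene with featureCounts (Subread 1.6.4) and deposited whole-number counts without normalization. All libraries were sequenced in 1 common run. From these counts, edgeR 4.0.16 under R 4.3.3 gave TMM factors, CPM and log2 fold changes (filterByExpr, robust glmQLFit, glmQLFTest), with Benjamini-Hochberg adjustment over 18438 genes and a threshold of 0.05. Standard errors came from the fold change and the quasi-likelihood F. Log2 CPM used a prior count of 2. Ratios and shares were compared with exact permutation tests (scipy 1.17.1) and adjusted within each family. DESeq2 1.42.0 and limma 3.58.1 served as alternatives, beside other scalings and filters, a replicate block and each library left out.

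Positions and exonic lengths were read from GENCODE M21 (GRCm38), where 55141 of 55401 listed genes were found, and promoters from RefSeq. A different annotation release can shift exon lengths and so the levels per kilobase. The floor of 3 counts covers counting error only, while the printed intervals come from the quasi-likelihood fit and include the spread between libraries. The smallest p of 3 libraries against 3 is 0.1. No library pair had identical counts. The members and gene lists were chosen with earlier results of these data known. Genes named were the members, the 3 nearest in pattern to each (at least 5 CPM), pathway genes past the threshold with the 3 smallest p per role, and the first 3 of each marker list, and exceptions are marked. Of these, 1 marker gene is not reported here. The authors' comparison results were not used here.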

Additional observations from a re-analysis of the deposited data

How the results depend on the processing

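Over 19 results and 199 alternative values, 161 were labelled the same. For the fold changes of the members this meant the same direction and side of the threshold. For ratios and shares it meant the same direction only, and for counts of called genes a change of at most 1.5-fold. Genes called over all 18438 numbered 209, with 1436 without a low-count filter, 944 with DESeq2's Wald test, 584 with that test without a filter (added after seeing the data), and 21 to 700 with 1 library left out (lowest without RbpjΔEC 1, highest without CTRL 2). Scaling to library size alone gave 241, 159 higher and 82 lower, against 106 and 103. In the same order, the pathway count of 1 became 6, 6 and 5, with 0 to 5 when 1 library was left out, and 2 with limma voom. Pdgfd passed without a low-count filter (log2 fold change -0.28) and with DESeq2's Wald test (-0.29), and Pdgfrb without a filter (-1.36), with DESeq2's Wald test (-1.37) and with that test without a filter (-1.37). Filtering and dispersion estimates differ between these fits, and the cause was not tested. With 1 library left out, the log2 fold change ran from -0.22 to 0.036 for Pdgfa, from -0.19 to 0.0023 for Pdgfb, from -1.27 to -0.51 for Pdgfc, from -0.37 to -0.25 for Pdgfd (past the threshold without CTRL 2), from -2.18 to -1.42 for Pdgfra (past it only without CTRL 2 or RbpjΔEC 3) and from -1.86 to -1.16 for Pdgfrb (past it without RbpjΔEC 3). The log2 ratio of Pdgfb to Pdgfa, -0.02, ran from -0.23 to 0.10 and was 0.0743 without CTRL 3, and the share of Pdgfa, 0.23 percentage points higher in RbpjΔEC, ran from -0.095 to 0.80 and was -0.0139 without CTRL 3. The log2 ratio of Pdgfb to the endothelial sum, 0.10, was 0.0179 against the mean log2 CPM of the markers and 0.0012 without CTRL 1. The ratios that leave out Kcnj8 and Abcc9 or Pi16 were chosen after seeing the data and carry no test.

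The libraries share only a replicate number: same-numbered libraries deviated with correlations of 0.0231, 0.0092 and 0.0054, and 0 of 6 libraries correlated best with their own number. With the replicate block, 344 genes and 2 pathway genes were called, and Pdgfrb had a log2 fold change of -1.44 (adjusted p = 0.0411, edgeR). The block changed no other call on the members.

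Pdgfc, with 26 to 91 counts per library, and Pdgfra, with 31 to 157, had the fewest counts of the members.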
